A study of Mus musculus with 4 samples.

Results

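The filamins and alpha-actinins are actin-crosslinking proteins, and 5 of their genes (*Flna*, *Flnc*, *Actn1*, *Actn2* and *Actn4*) were taken by symbol from the 23038 genes measured. Their alternative splicing events were taken by gene identifier, which gave 14 of the 38240 event rows in the files. The 14 rows belong to 8 events, since an event with several forms takes a row for each pair of forms. The libraries were mRNA-SEQ of the mouse cortex at E14.5, 2 from control embryos with floxed *Qk* alleles (*Qk* fl/fl, labelled wild type) and 2 from *Qk* cKO embryos (*Nestin*-cre:*Qk* fl/fl), in which exon 2 of *Qk* is removed. Both groups carried the floxed alleles. *Nestin*-Cre acts in neural progenitors and the cells they give rise to, so blood vessel, meningeal, blood and microglial cells of the cortex would largely keep *Qk*. In these bulk libraries *Qk* was not measured by cell type. Littermates were used, and the labels call the 2 samples of each group independent. *Qk* encodes Quaking, an RNA-binding protein that regulates splicing.

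Filamins are long rods of immunoglobulin-like repeats that pair at their C-terminus and hold actin filaments at wide angles, and they also bind integrins and other membrane proteins. Alpha-actinins are antiparallel dimers that hold filaments in parallel, with an actin-binding domain at one end, spectrin repeats in the middle and a calmodulin-like domain with EF hands at the other. *Flna*, *Actn1* and *Actn4* are the widely expressed members, while *Flnc* and *Actn2* are best known from striated muscle. Loss of human *FLNA* causes periventricular heterotopia, in which cortical neurons stay beside the ventricle.

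The exons below are the alternative exons that the splicing results turn on, 5′ to 3′ and taken from GENCODE M21 transcripts (GRCm38, the mm10 build). In *Flna* the 24-nt cassette exon is in capitals between 30 bases of each neighbouring exon. It is exon 29 of Flna-201 at chrX:74232967-74232990, minus strand, and it lies in the coding region and keeps the reading frame with 8 codons.
*Flna* exon 29: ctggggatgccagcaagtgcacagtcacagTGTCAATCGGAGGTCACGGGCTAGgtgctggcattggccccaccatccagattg

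*Actn4* has a pair of coding exons 8 of 86 nt each, used one at a time, and capitals mark the bases that differ between them. The upstream exon is at chr7:28911490-28911575 and the downstream exon at chr7:28909903-28909988, both on the minus strand. Of the 86 aligned bases 65 were identical (75.6%), and 18 of 29 codons differed, but only 3 of those changed the amino acid. Exon 8 codes for part of the actin-binding domain.
*Actn4* exon 8, upstream: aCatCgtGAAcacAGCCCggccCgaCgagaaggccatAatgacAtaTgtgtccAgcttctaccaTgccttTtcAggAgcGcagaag
*Actn4* exon 8, downstream: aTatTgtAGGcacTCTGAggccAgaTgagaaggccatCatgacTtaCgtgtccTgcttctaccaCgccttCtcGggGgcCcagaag

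*Actn1* has a pair of coding exons 19 of unequal length, 81 nt upstream (chr12:80170686-80170766) and 66 nt downstream (chr12:80170183-80170248), both on the minus strand. They code for part of the EF hand region, and the upstream exon is known as the nonmuscle form and the downstream exon as the smooth muscle form.
*Actn1* exon 19, upstream: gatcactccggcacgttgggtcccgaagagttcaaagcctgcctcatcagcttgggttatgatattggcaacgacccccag
*Actn1* exon 19, downstream: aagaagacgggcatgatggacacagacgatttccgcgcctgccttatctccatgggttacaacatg

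The libraries held 37942046 to 42994832 tags assigned to genes. The *Qk* deletion was visible in each *Qk* cKO library: junction tags joining exon 2 to exon 3 of *Qk* stood at 111 and 129 per 100 tags joining exon 3 to exon 4 in control 1 and 2, and at 7.02 and 8.19 in *Qk* cKO 1 and 2. Tags joining exon 2 to exon 3 fell from 635 and 565 in control to 63 and 68 in *Qk* cKO. Those joining exon 3 to exon 4 rose from 574 and 439 to 898 and 830. The level of *Qk* as a whole was called higher in *Qk* cKO (log2 fold change 0.65, edgeR FDR 2.5e-05). *Xist* was read at 57.1 and 64.5 RPKM (reads scaled to exon length and library depth) in replicate 1 of control and *Qk* cKO and at 0.0265 and 0.0095 in replicate 2, so each group held 1 female and 1 male embryo. *Flna* is X-linked, and its values are therefore also given within each sex. In bulk tissue, fewer cells of a type and less RNA per cell cannot be told apart.

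No member passed the test for a change in transcript level. Of the 5 genes, 0 passed the threshold of p under 0.01 and FDR under 0.1 in edgeR's quasi-likelihood test, and 0 passed with DESeq2 (which gave no adjusted p for 1, *Actn2*) or with edgeR's exact test, while 1 (*Flna*) had an unadjusted p under 0.05. Over all 18834 genes tested, 0.584% passed.

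*Flna*, the major nonmuscle filamin, was the most abundant member. Its level was 84.9 and 83.7 RPKM in control 1 and 2, and 93.2 and 97.1 RPKM in *Qk* cKO 1 and 2. Both *Qk* cKO libraries lay above both controls, as a gap between the groups did in 36.9% of all genes tested. The log2 fold change of *Flna* was 0.19 (SE 0.077, edgeR FDR 0.447), and the 95% interval from its SE ran from 0.04 to 0.34. Within sex, the ratio of *Qk* cKO to control was 1.10 in the female pair and 1.16 in the male pair.

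*Actn4*, a nonmuscle alpha-actinin, was read at 58.6 and 61.9 RPKM in control and 59.9 and 62.2 RPKM in *Qk* cKO. The groups overlapped, with a log2 fold change of 0.03 (SE 0.060, edgeR FDR 0.918). *Actn1*, the other widely expressed alpha-actinin, was read at 19.2 and 19.7 RPKM in control and 19.1 and 19.7 RPKM in *Qk* cKO. The fold change was 0.01 on the log2 scale (SE 0.066, edgeR FDR 0.978), with an interval from -0.12 to 0.14. The replicates of each of these genes lay close together, and the intervals leave out a change of the size of 0.2 on the log2 scale in either gene.

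The muscle members were rare. *Flnc* was read at 3.57 and 3.13 RPKM in control and at 2.68 and 3.50 RPKM in *Qk* cKO, a log2 fold change of -0.11 (SE 0.126, edgeR FDR 0.878). *Actn2*, the alpha-actinin of the Z-disc, was read at 1.02 and 1.09 RPKM in control and at 0.819 and 1.14 RPKM in *Qk* cKO, from 129 to 171 tags a library. The groups overlapped for both genes, and the interval for *Actn2* ran from -0.49 to 0.30 on the log2 scale.
Of the 13 striated muscle markers, 12 had at least 1 tag and 2 reached a mean of 1 RPKM. Their summed level was 7.68 and 6.12 RPKM in control and 6.32 and 6.55 RPKM in *Qk* cKO, and *Myog*, the myogenic factor, was at 0 in all 4 libraries. *Mylpf*, a fast muscle myosin light chain, led this list with 2.27 to 4.54 RPKM. The part of muscle RNA in the levels of *Flnc* and *Actn2* was not tested.

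On the RPKM scale, which is per length, the order *Flna*, *Actn4*, *Actn1*, *Flnc*, *Actn2* held in each of the 4 libraries, and no library of one gene reached the range of the next. *Actn3*, the alpha-actinin of fast muscle and not one of these 5, stood at 0.311 to 0.790 RPKM over the 4 libraries.

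**Figure D1:**
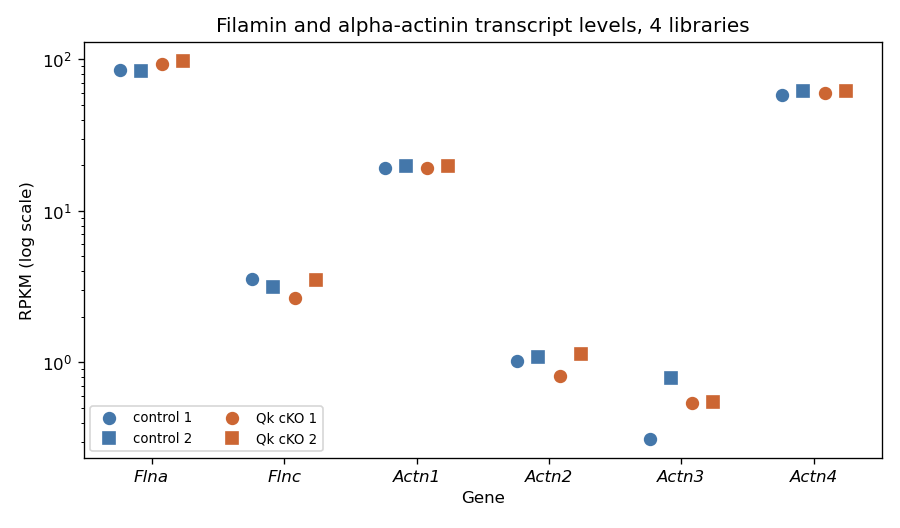
RPKM on a log axis for the filamin and alpha-actinin genes in the 2 control (blue) and 2 *Qk* cKO (orange) libraries, circles for replicate 1 and squares for replicate 2. *Flna* lay between 83.7 and 97.1 RPKM, with both *Qk* cKO points above both controls, and *Actn2* between 0.819 and 1.14.

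Splicing of the members was measured from tags on exon junctions. The inclusion level I is the share of transcripts with the exon, and ΔI is control minus *Qk* cKO, so a negative ΔI means more inclusion in *Qk* cKO. Coverage is the smallest of the junction tag sums by form and by group. Of the 14 rows, 5 had a coverage of at least 20 tags and were tested with Fisher's exact test. Of these, 3 passed p under 0.01 and FDR under 0.1 (1 in *Flna*, 2 of the same event in *Actn4*). Among all cassette event rows tested 9.28% passed, and among all rows of mutually exclusive pairs 4.01%. *Actn2* had no event in the files.

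Exon 29 of *Flna* was included more often in *Qk* cKO. I was 0.526 and 0.498 in control 1 and 2, and 0.671 and 0.697 in *Qk* cKO 1 and 2. The 95% Wilson intervals of the 2 control libraries, 0.481 to 0.571 and 0.450 to 0.547, did not reach those of the *Qk* cKO libraries, 0.630 to 0.710 and 0.655 to 0.736. ΔI was -0.171 with a 95% Newcombe interval from -0.214 to -0.127 (FDR 6.28e-12, Fisher's exact test). The edgeR interaction test, which counts the spread between libraries, gave FDR 0.0721.

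The change showed in all 3 junctions of the exon, scaled to 10000 tags of *Flna*. The junction from exon 28 into exon 29 had 89.4 and 78.2 tags in control and 106 and 103 in *Qk* cKO, and the junction from exon 29 into exon 30 had 81.9 and 76.3 in control and 105 and 102 in *Qk* cKO. The skipping junction, from exon 28 to exon 30, had 77.1 and 77.7 tags in control and dropped to 51.7 and 44.4 in *Qk* cKO. The groups did not overlap in any of these 3 junctions. All 3 read the same event and are no separate evidence. In gene levels such a gap was seen in 36.9% of all genes tested, and the share over all junctions was not measured. The mean of the skipping junction in *Qk* cKO was 0.621 times that in control, and those of the inclusion junctions were 1.25 and 1.31 times. Since the *Flna* values lay above control in both *Qk* cKO libraries, the skipping tags were also set against all tags of the library, where the ratio was 0.699.

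Among the 4600 cassette exons tested, 234 had an absolute ΔI as large as that of *Flna* exon 29. Of the 332 exons of 30 nt or less, 18 did, and 50 of the 332 passed the test, 27 of them with more inclusion in *Qk* cKO.

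Exon 8 of *Actn4* shifted toward the upstream exon of the pair. I of the upstream exon was 0.509 and 0.518 in control 1 and 2, and 0.594 and 0.641 in *Qk* cKO 1 and 2. ΔI was -0.103 (95% Newcombe interval -0.173 to -0.031, FDR 0.0352, Fisher's exact test). The edgeR interaction test, which takes the spread between libraries into account, gave FDR 1.0, so the call rests on the pooled tags. Without control replicate 1 the FDR was 0.373, and without *Qk* cKO replicate 2 it was 0.566.
Per 10000 tags of *Actn4*, the junction into the upstream exon had 87.6 and 99.4 tags in control and 124 and 122 in *Qk* cKO, and the junction out of it had 96.2 and 109 in control and 125 and 120 in *Qk* cKO. The junction out of the downstream exon had 98.4 and 114 tags in control and 85.1 and 78.5 in *Qk* cKO. These 3 junctions separated the groups. The junction into the downstream exon did not, with 78.9 and 80.4 in control and 84.6 and 56.8 in *Qk* cKO. All of these junctions belong to 1 event, and the share of all junctions that separate the groups was not measured. The second called *Actn4* row pairs the same upstream exon with a form of the downstream exon that starts at a later splice site. The junction into that later site had 0 tags in each control library, and 1.45 and 0.17 in *Qk* cKO 1 and 2. The second row thus shares nearly all its tags with the first and is no separate evidence (ΔI -0.099, FDR 0.0352, Fisher's exact test). Of the 598 mutually exclusive pairs tested, 78 had an absolute ΔI as large as the first. The other tested *Actn4* row compares the downstream exon with its later-starting form. It was not called (ΔI -0.012, coverage 355).

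Exon 19 of *Actn1* did not pass the test. I of the upstream, nonmuscle exon was 0.955 and 0.949 in control and 0.957 and 0.973 in *Qk* cKO. The coverage of 40.0 is the sum of the downstream exon's junction tags over the libraries. The upstream exon had 256 and 205 junction tags in control and 247 and 215 in *Qk* cKO. ΔI was -0.012 (95% Newcombe interval -0.051 to 0.026, p = 0.798, FDR 1.0, Fisher's exact test). The downstream exon was thus the minor form in all 4 libraries.

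**Figure D2:**
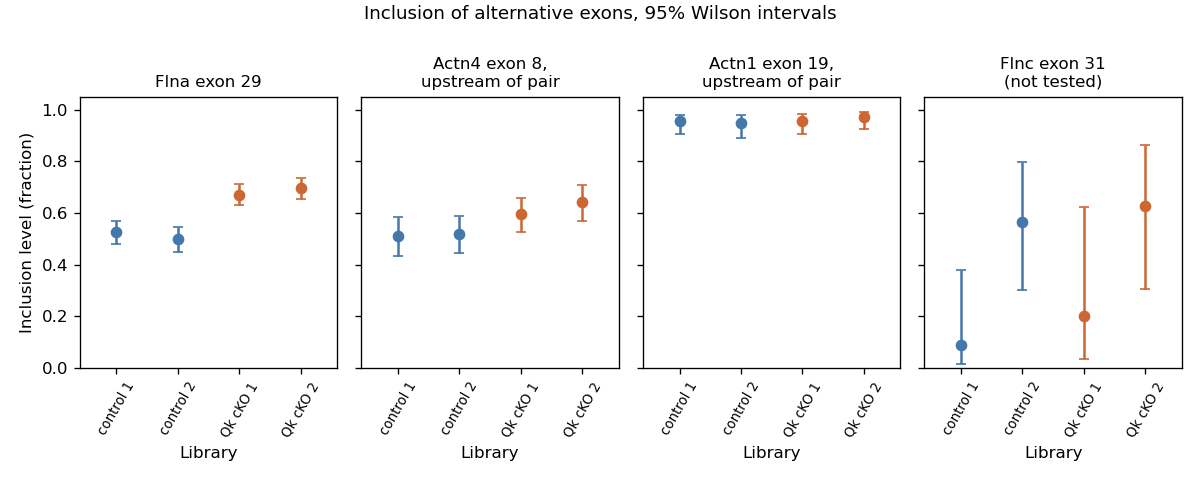
Inclusion level (fraction) of 4 alternative exons in each library, blue for control and orange for *Qk* cKO, with 95% Wilson intervals that cover counting error only. *Flna* exon 29 lay at 0.498 to 0.526 in control and 0.671 to 0.697 in *Qk* cKO, *Actn1* exon 19 near its upper limit in all libraries, and *Flnc* exon 31, which was below the coverage minimum, had wide intervals.

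**Figure D3:**
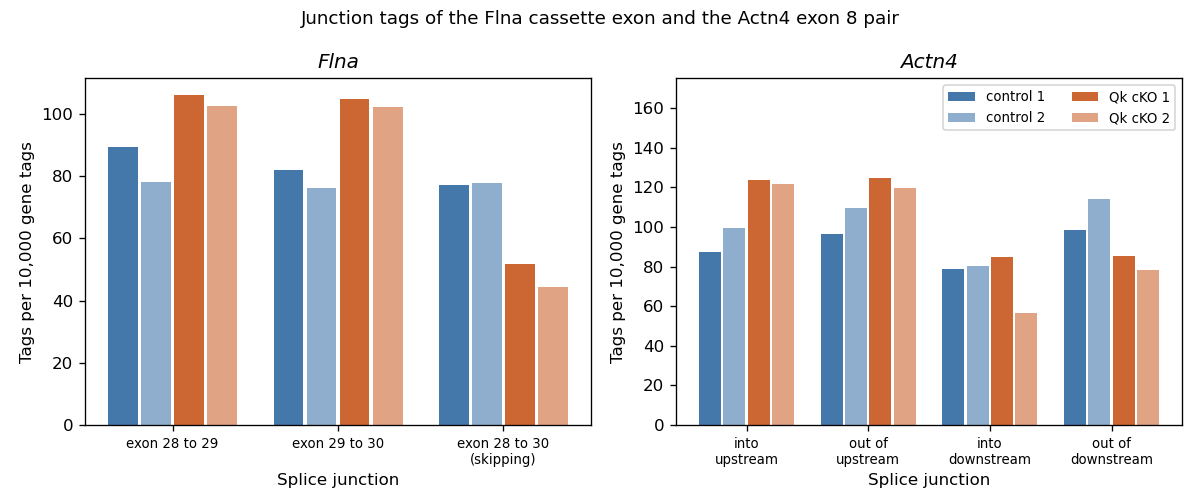
Junction tags per 10000 tags of the gene for *Flna* (left, 3 junctions of exon 29) and *Actn4* (right, junctions into and out of the upstream and downstream exon 8), 1 bar per library. The *Flna* skipping junction was 77.1 and 77.7 in control and 51.7 and 44.4 in *Qk* cKO.

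The remaining *Flna* and *Actn4* event rows and the only *Flnc* row (9 rows in all) had a coverage under 20 and were not tested.

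Genes that work with these proteins, 50 in 4 lists, were compared for context. In the list of 13 filamin partners, such as the integrin *Itgb1* and the kinase *Pak1*, 0 passed in edgeR, DESeq2 or the exact test, and 0 had an unadjusted p under 0.05. *Pak1* led this list at 67.9 and 72.5 RPKM in control and 71.3 and 69.8 RPKM in *Qk* cKO. The median log2 fold change was 0.02, against -0.0025 over all genes tested. DESeq2 gave no adjusted p for 5 genes of this list, nor for 7 of the next and 2 of the last. In the list of 20 alpha-actinin partners, which holds vinculin, zyxin, talin and the PDZ-LIM proteins, 0 passed in the same 3 tests and 3 had an unadjusted p under 0.05 (*Pdlim1*, *Pdlim3* and *Lrrc7*, named after their values were seen). *Csrp2*, a LIM protein that binds alpha-actinin, led the list at 116 and 108 RPKM in control and 123 and 109 RPKM in *Qk* cKO. In the list of 16 other actin crosslinkers, 0 passed and 2 (*Lcp1* and *Tagln2*, named after their values were seen) had an unadjusted p under 0.05. *Dbn1*, which encodes drebrin, led it at 328 and 338 RPKM in control and 327 and 320 RPKM in *Qk* cKO. The median log2 fold changes of these 2 lists were 0.01 and 0.0091. The list of 1 other alpha-actinin, *Actn3*, is given above.

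In splicing, 13 of the 50 genes had a tested event, and 1 of them, *Magi1*, had a called event with an absolute ΔI of at least 0.1. Across all genes with a tested event, 5.54% had one. *Magi1*, a scaffold of cell junctions, had 2 rows of the same 3′ splice site event, with ΔI of -0.109 and -0.184 (FDR 0.0401 each, Fisher's exact test), and neither passed the edgeR interaction test (FDR 0.695). Among the list genes, *Pdlim7* was also called, with an absolute ΔI under 0.1.

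**Figure D4:**
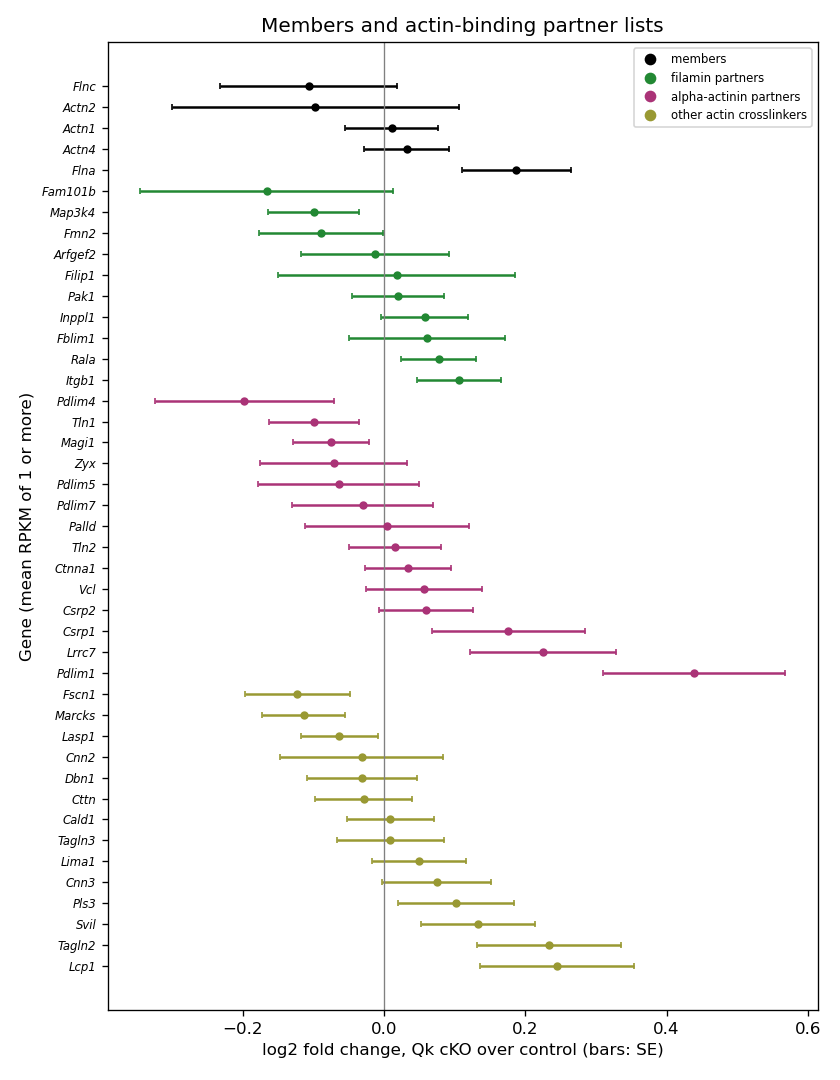
log2 fold change (*Qk* cKO over control) of the members and of partner genes with a mean of at least 1 RPKM, with bars of 1 SE, coloured by list and sorted within it. None of the genes shown passed edgeR's threshold, and *Flna* lay at 0.19.

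By the likeness of its level over the 4 libraries, each member was set beside all genes with a mean of at least 1 RPKM (12743). The measure is Pearson's r of log2 CPM over 4 samples, which is a description, since 36 to 113 genes per member had r over 0.99. For the genes named here r ran from 0.9989 (*Zfp202*) to 0.99995 (*Gnb5*). *Flna* was most like *Gnb5* and *Tspan31*, and *Actn4* was most like *Alkbh4* and *Gtf3c3*. *Actn1* was most like *Slitrk3* and *Zfp882*, *Flnc* was most like *Edn3* and *Mpp5*, and *Actn2* was most like *Usp13* and *Zfp202*.

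The summed level of markers of other cells was set beside the members. Meningeal fibroblast markers (6 of 6 with tags) summed to 127 and 117 RPKM in control and to 116 and 157 RPKM in *Qk* cKO. *Qk* cKO 2, the library with the highest *Flna* level, was also the highest here. *Qk* cKO 1, where *Flna* lay above both controls too, was the lowest here. Endothelial markers (7 of 7) summed to 78.6 and 74.6 RPKM in control and to 72.0 and 84.2 RPKM in *Qk* cKO, and those of smooth muscle and pericytes (7 of 7) to 34.9 and 37.2 and to 39.4 and 37.8 RPKM. None of the genes in these 3 lists passed in edgeR, though 3 meningeal and 1 endothelial gene had an unadjusted p under 0.05. Cortical markers summed to 1256 and 1281 RPKM in control and 1227 and 1181 RPKM in *Qk* cKO. Most of this sum was 1 gene, *Tubb3*, at 765 and 833 RPKM in control and 779 and 676 RPKM in *Qk* cKO. Of the 11 cortical markers, 6 had a positive log2 fold change and 5 a negative one. An unadjusted p under 0.05 was seen for 2 of them, *Sox2* (lower) and *Tbr1* (higher), named after their values were seen. Microglial markers summed to 16.8 to 18.6 RPKM and erythroid markers to 430 to 587 RPKM over the 4 libraries. Of these, 0 microglial genes and 1 erythroid gene (*Hbb-y*, higher in *Qk* cKO) had an unadjusted p under 0.05. Hypothalamic markers summed to 11.1 and 16.8 RPKM in control and to 8.21 and 7.95 RPKM in *Qk* cKO, and 6 of these 7 genes were called lower in *Qk* cKO by edgeR's quasi-likelihood test and 6 by its exact test. DESeq2 called 0 of the 7, since it gave no adjusted p for those 6. All 6 are among the transcripts that the paper lists as changed in these same libraries, so their count is no separate evidence. Over all genes tested, 0.584% passed in edgeR's quasi-likelihood test. *Nkx2-1*, the highest of the list, was not called, at 6.79 and 7.26 RPKM in control and 5.94 and 6.31 RPKM in *Qk* cKO. Of the called genes, *Nkx2-2*, *Six6*, *Nr5a1* and *Sox14* stayed under 1 RPKM in each library. They were uneven within control, with *Sox14* at 9 and 70 tags and *Six6* at 37 and 135 tags in control 1 and 2. The part of these cell types in the member levels was not tested.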

How the data were processed

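mRNA-SEQ (poly-A selected, 150-bp paired-end) of E14.5 cortex from 2 control and 2 *Qk* cKO embryos was analysed. Per the labels and the study's methods, the authors mapped reads to mm10 with OLego and quantified genes and events with Quantas. The deposited gene tags and event tags are estimated counts, not normalized, and 8.41 to 12.1% of the gene values were not whole. The deposited RPKM values were used for levels. Gene tags were rounded and tested with edgeR 4.0.16 (quasi-likelihood, TMM, R 4.3.3) on genes with at least 1 tag. Depth was 37942046 to 42994832 tags a library. Inclusion was recomputed from junction tags, and Fisher's exact test (scipy 1.17.1) was run on summed isoform tags of events with a coverage of at least 20, with Benjamini-Hochberg adjustment within event type. Fisher's test counts tags, not embryos. Alternatives were DESeq2 1.42.0, edgeR's exact test, other scalings and filters, a replicate block, a count interaction test and leaving out each library. The members and lists were chosen with earlier results of these data known. Named were the 5 members with their events of coverage 20 or more, list genes called or highest in their list, and the 2 genes most like each member. Scripts were tested on simulated data. The Wilson and Newcombe intervals cover counting error only. Those of the log2 fold changes come from the SE of the edgeR fit, which takes in the spread between libraries. One gene of the lists is not reported here.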

Additional observations from a re-analysis of the deposited data

Results flagged for a closer look

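*Flnc* and *Actn2* did not pass the test in level, and their differences between *Qk* cKO and control had opposite signs in the female and the male pair. The log2 RPKM ratio of *Qk* cKO to control for *Flnc* was -0.42 in the female pair and 0.16 in the male pair, and for *Actn2* it was -0.32 and 0.065. Each pair holds 1 library per genotype, so the difference between the sexes was not tested.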

How the results depend on the processing

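The 5 members stayed uncalled in level under all 9 alternatives (DESeq2 gave no adjusted p for *Actn2*), in which the log2 fold change of *Flna* ran from 0.17 to 0.20 (FDR 0.109 to 0.920). *Flna* exon 29 stayed called under all 11 of its alternatives (ΔI -0.185 to -0.158, FDR at most 0.0721), and *Actn1* exon 19 stayed uncalled under its 10. Among these alternatives, averaging the inclusion of the replicates reused the p of the main test, so its calls were fixed in advance. The other coverage minimums and the adjustment over all event types also kept that p and changed only the FDR. The *Actn4* pair stayed called under 8 of 11, a count that includes these settings. Its ΔI is unchanged at -0.103 in the edgeR interaction test, where the call was lost (FDR 1.0), and it ran from -0.127 to -0.081 when a replicate was left out, with the call lost without control 1 and without *Qk* cKO 2. The number of called member event rows, 3, fell to 1 in the interaction test. The number of called partner genes in level, 0, stayed at 0 under the settings that kept all libraries and ran from 0 to 1 with a replicate left out (*Pdlim3* without *Qk* cKO 1). The number of partner genes with a called event of absolute ΔI at least 0.1, 1 (*Magi1*), was 2 with junction tags only, 0 at a coverage of 50, 0 in the interaction test, and ran from 0 to 3 with a replicate left out. The cause of these changes was not tested, other than fewer samples or fewer events. The *Qk* exon 2 junction stayed at 5.90 to 6.92% of control.

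The labels number replicates 1 and 2 in each group. Deviations of same-numbered libraries correlated at 0.303 over all genes and at -0.0885 over autosomal genes, so the numbers share sex but were not shown to pair the embryos. With a replicate block, 0 partner genes and 0 members were called in level. In splicing, 3 member event rows were called, and 1 partner gene had a called event of absolute ΔI at least 0.1. The *Flna* ΔI kept FDR 7.91e-12 with the block. The *Qk* junction ratio was 6.36% of control. With 2 libraries a group, a library left out leaves an arm with 1, assumed to vary like the other group.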

Other observations

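*Flnc* exon 31 (33 codons, hinge 1; chr6:29452799-29452897, plus strand) had a coverage of 19 tags and was left out of the test. It is shown here after its values were seen. Its inclusion was 0.0909 and 0.565 in control 1 and 2 and 0.2 and 0.625 in *Qk* cKO 1 and 2, so the 2 female libraries were low and the 2 male libraries high within each genotype. The Wilson intervals, 0.0162 to 0.377 and 0.300 to 0.798 in control and 0.0362 to 0.625 and 0.306 to 0.863 in *Qk* cKO, were wide.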
